A study of Rattus norvegicus with 18 samples.

Results

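T-MBP cells are CD4+ T cells of Lewis rats that were raised against myelin basic protein and kept as a line in culture. Their transcriptome in the spleen was compared between cells in which *Ets1* had been edited (*Ets1*-KO) and control cells that had received a non-targeting guide (NT control). The comparison covered 6979 of the 32882 genes in the table, chosen by a normalized count that averaged at least 10 across the 6 libraries. There were 3 libraries per genotype out of 18 from rats. The other libraries hold *Ets1*-KO T-MBP cells of the spinal cord parenchyma and *Grk2*-KO cells of the spleen, each with its own controls. All groups were T-MBP cells of the Lewis rat, restimulated with myelin basic protein on irradiated thymocytes, transferred to Lewis rats and isolated on day 3 after transfer. According to the paper, the *Ets1*-KO and control cells sequenced from the parenchyma came from rats that had received both together. According to the methods, the editing was done by electroporation of a Cas9 ribonucleoprotein into cells that already carried BFP or GFP, so the cells are an edited population and not a clone, and the share of edited alleles was not analysed here. Control cells were sorted on BFP and KO cells on GFP, so that genotype and fluorophore cannot be told apart. Spleen cells had been freed of erythrocytes and enriched for CD4+ T cells before the sort.

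ETS1 is the founding member of a family of transcription factors that bind DNA at a GGAA core. In T cells it is known to take part in development, survival, cytokine expression and the response to activation. T-MBP cells pass through peripheral organs such as the spleen before they enter the CNS. Dividing T cells express the genes of DNA replication under E2F factors and, later in the cycle, those of mitosis, and stimulation through the T cell receptor brings a brief wave of immediate early genes such as *Fos* and *Egr1*.

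The edited and the control cells differed in the guide they received. The guide sequences of the study are shown because they define the groups, and each has 20 bases.
*Ets1* guide (rat): tgctgctcggagttaacagt
non-targeting control guide: gctgcatggggcgcgaatca

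*Ets1* mRNA did not separate the genotypes. The normalized count of *Ets1* (chr8:33816385-33879625, Rnor_6.0) was 1965, 2038 and 2227 in the control libraries of replicates 1 to 3 and 1868, 1763 and 2369.8 in the *Ets1*-KO libraries. The groups overlapped, with a log2 difference of -0.064 ± 0.11 (SE, n = 3 pairs, limma adjusted p = 0.854), and the two-sided exact permutation test over 20 labellings gave p = 0.7, where 0.1 is the smallest p that 3 against 3 libraries allow. Reads of a 3′ library come from the end of the transcript and do not show an edit elsewhere, so this level does not check the genotype labels. Of the 13 ETS family genes tested, none passed the test in either direction, and their median log2 difference was 0.064. *Fli1*, the second most abundant of them, had 276, 298 and 296 normalized counts in control and 270.5, 314 and 327 in *Ets1*-KO libraries, values that overlapped.

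The libraries were sequenced to unequal depth. Whole reads recovered from the normalized counts gave between 898092 and 1213485 reads on genes per control library and between 1909862 and 2248258 per *Ets1*-KO library, a ratio of the means of 1.89 (exact permutation, two-sided, p = 0.1). Among replicates of 1 genotype, log2 values correlated across genes with r between 0.946 and 0.978. Mitochondrial rRNA took between 13.8% and 15.4% of the reads in control libraries and 11.3%, 11.7% and 18% in *Ets1*-KO libraries 1 to 3. Of 13 T cell genes, 12 passed the count minimum and none of them differed, while *Thy1* was at 0 in every library and *Cd4* was low, at 6.45 to 21.9 normalized counts. *Lck* and *Lat*, a kinase and an adaptor of T cell receptor signalling, were both abundant. *Lck* had 842, 885 and 869.7 normalized counts in control and 785, 851 and 708 in *Ets1*-KO libraries, and *Lat* had 789, 872 and 749 normalized counts in control and 860, 886 and 791 in *Ets1*-KO libraries. None of 12 myeloid, 8 neutrophil, 10 B cell or 7 stromal and endothelial marker genes in the table reached the count minimum. The summed level of the B cell markers was 4.3 to 13.1 in control and 3.42 to 10.5 in *Ets1*-KO libraries, with *Cd79a* and *Cd79b* at 0. That of the myeloid markers was 5.47 to 9.4 and 2.5 to 11, with *Adgre1* at 0. Of 7 CD8 T and NK cell markers and 10 erythroid and platelet markers, 2 each were tested and none passed, with summed levels of 43 to 55.8 in control and 55 to 65.7 in *Ets1*-KO libraries for the former and 36.1 to 66.7 and 45.6 to 56.1 for the latter. In bulk RNA, fewer cells of a kind and less RNA per cell cannot be told apart.

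*Ets1*-KO cells in the spleen had lower levels of 16 of 28 mitosis, 9 of 29 DNA replication and 3 of 5 MHC class II genes tested. Higher were 4 of 16 immediate early genes, *S100a6* and *S100a4* of 16 S100, annexin and vimentin genes, and single receptors and secreted factors such as *Il4r*, *Ccl5* and *Fgl2*. These lists were chosen with earlier results of these data known, so their counts are a description. In all, 155 of the 6979 genes passed the test (limma, adjusted p under 0.05), which is 2.22%. Of these, 71 were higher in *Ets1*-KO cells (1.02% of the genes tested) and 84 lower (1.2%), and 154 of the 155 changed in the same direction in all 3 pairs of same-numbered libraries. The changes were mostly small: the median log2 difference was 0.674 among the higher and -0.64 among the lower genes, against a median of 0.00039 over all genes tested. Only 18 of the genes that rose and 13 of those that fell moved by over 1 on the log2 scale. In 146 of the 155 the 2 groups of libraries did not overlap, which was the case for 16.9% of all genes tested (8.04% with *Ets1*-KO higher, 8.88% with *Ets1*-KO lower). The test chose the 155 from the same libraries and pairs, so this agreement and lack of overlap were largely fixed in advance. The count rested on the fit: without the replicate number as a block it was 71 (35 higher, 36 lower), all among the 155, and without replicate 1 it was 3. At equal depth, with the reads of every library thinned to the smallest total, it was 189, among them 134 of the 155. Without the third *Ets1*-KO library, an alternative chosen after seeing the data and run without the block, it was 21. With the trend of variance on level left out of limma no gene passed, although 785 had an unadjusted p under 0.05, and edgeR's quasi-likelihood test on the recovered reads called 238, among them all 155. The split of the calls moved with the scaling, to 114 higher and 85 lower under TMM and to 109 and 83 under upper quartile scaling.

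**Figure D1:**
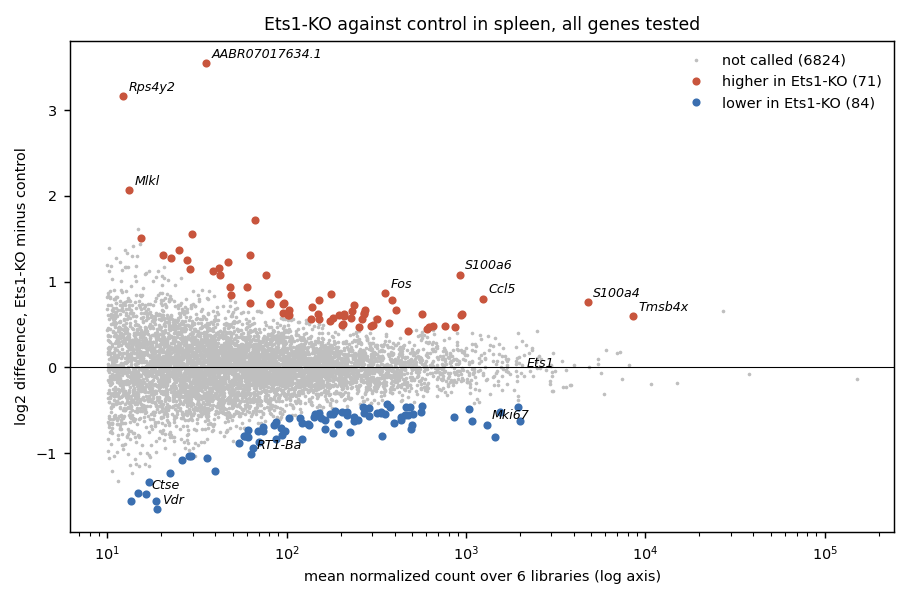
Mean normalized count over the 6 libraries (x axis, log scale) against the log2 difference between *Ets1*-KO and control (y axis) for 6979 genes, with the 71 genes that rose and the 84 that fell in colour. The largest rises, *AABR07017634.1* and *Rps4y2*, were of genes of low level, while *S100a6* rose by 1.08 at a higher level.

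Mitosis genes held more calls than any other list. All 28 mitosis genes tested were lower on average in *Ets1*-KO cells, with a median log2 difference of -0.556, and 16 of them (57.1%) passed the test, where 1.2% of all genes tested fell. The list was chosen with earlier results of these data known, so this share is a description. Of the 28, 25 changed in the same direction in all 3 pairs, a count for which no share over all genes was taken. In 21 of the 28 the libraries of the 2 genotypes did not overlap. Of all genes tested, 8.88% did not overlap with *Ets1*-KO lower. The summed level of the list was 11800 to 14100 normalized counts in control libraries and 8850 to 9910 in *Ets1*-KO libraries. *Mki67*, the proliferation marker Ki-67, had 1669, 1325 and 1819 normalized counts in control and 949.7, 878 and 1195 in *Ets1*-KO libraries. Every control library lay above every *Ets1*-KO library, with a log2 difference of -0.67 ± 0.11 (SE, n = 3 pairs, limma adjusted p = 0.00208). *Top2a*, the topoisomerase that untangles chromosomes, was named after its values were seen and had 2439, 2203 and 2676 normalized counts in control and 1473, 1477 and 1788 in *Ets1*-KO libraries, again without overlap, with a log2 difference of -0.63 ± 0.11 (SE, n = 3 pairs, limma adjusted p = 0.00328). The largest fall in the list was that of *Bub1b*, a kinase of the spindle checkpoint, with 83.1, 78.5 and 108 normalized counts in control and 62.3, 34.7 and 52.5 in *Ets1*-KO libraries and a log2 difference of -0.86 ± 0.19 (SE, n = 3 pairs, limma adjusted p = 0.0155). *Cdk1*, the kinase that drives entry into mitosis, fell by 0.70 (adjusted p = 0.0339) and *Birc5*, survivin, by 0.63 (adjusted p = 0.00644), both on the log2 scale by limma. *Bub1*, another checkpoint kinase, fell by 0.67 (adjusted p = 0.034) and *Kif11*, the motor that separates spindle poles, by 0.67 (adjusted p = 0.0115).

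The replication genes moved in the same direction. All 29 tested were lower on average, with a median of -0.528, and 9 (31%) passed the test. In 15 of the 29 the libraries of the genotypes did not overlap, where 8.88% of all genes tested did not overlap with *Ets1*-KO lower. The summed level was 4460 to 5080 normalized counts in control and 3200 to 3830 in *Ets1*-KO libraries. *Mcm7*, a subunit of the replicative helicase, had 315, 266 and 273 normalized counts in control and 163, 166 and 175 in *Ets1*-KO libraries, a narrow range in the edited cells well below the controls, and a log2 difference of -0.75 ± 0.13 (SE, n = 3 pairs, limma adjusted p = 0.00259). The helicase subunits *Mcm2* (log2 difference -0.71, adjusted p = 0.0168) and *Mcm5* (-0.65, adjusted p = 0.0444) fell as well, as did *Cdc6*, which loads the helicase (-0.88, adjusted p = 0.0207). *Tk1*, the thymidine kinase of S phase, had 141, 138 and 193 normalized counts in control and 78.7, 97.4 and 84.9 in *Ets1*-KO libraries and a log2 difference of -0.83 ± 0.16 (SE, n = 3 pairs, limma adjusted p = 0.00423). *Ccne2*, a cyclin of the entry into S phase, fell by 1.04 with libraries at 42.7, 31.2 and 42.3 in control and 24, 12.4 and 20 in *Ets1*-KO cells (adjusted p = 0.0428).

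Other genes among the 15 largest falls belonged to neither list. *Cdca2*, which recruits a phosphatase to chromosomes, was at 101, 79.6 and 76.8 in control and 42.5, 45.3 and 44.3 in *Ets1*-KO libraries (-0.94, adjusted p = 0.00847). *Ercc6l*, a helicase of the anaphase bridges, was at 36.1, 32.3 and 26.6 in control against 13, 11.8 and 13.7 in *Ets1*-KO libraries (-1.23, adjusted p = 0.0339). *Cenpn*, a centromere protein, fell by 1.08, *Brca2*, of recombination repair, by 1.04 and *Rbl1*, the pocket protein p107, by 1.05 on the log2 scale (adjusted p = 0.0451, 0.0399 and 0.0307). *Dnmt1*, the maintenance DNA methyltransferase that copies methylation after replication, was the only 1 of 20 tested chromatin and DNA methylation genes that passed. It had 686, 518 and 644 normalized counts in control and 385, 336 and 441 in *Ets1*-KO libraries, with a log2 difference of -0.67 ± 0.11 (SE, n = 3 pairs, limma adjusted p = 0.00259). Chosen after their values were seen and not as a group, *Lmnb1* (lamin B1, -0.80, adjusted p = 0.000633), *Mybl2* (B-Myb, -0.79, adjusted p = 0.00878) and the tubulins *Tuba1b* (-0.52, adjusted p = 0.0145) and *Tubb5* (-0.47, adjusted p = 0.0313) fell too.

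The counts of these lists varied with the fit. At equal depth 18 of 28 mitosis and 9 of 28 replication genes passed, and with no replicate block 9 of 28 and 6 of 29. With DESeq2 and a block, 8 of 28 and 3 of 29 passed. Without replicate 1, none of either list passed, although 28 of 28 and 27 of 28 were still lower, with medians of -0.486 and -0.505.

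Promoters were searched because the members of both lists moved together. In windows of 250 bases before to 50 after the start (RefSeq, GRCr8), the letters TTTGAA on either strand, the cell cycle homology region of textbook G2/M promoters, stood in 80% of 25 mitosis and 4% of 25 replication genes with a window, 33.8% of 68 genes that fell, 17.6% of 51 that rose, 12.1% of 5498 genes tested and 18.1% of all 27457 windows. The E2F letters TTTGGCGC or TTTCCCGC on either strand stood in 40% of the replication and 0% of the mitosis genes, 8.82% of the genes that fell, 1.96% of those that rose, 3.6% of the genes tested and 1.53% of all windows. The ETS letters CCGGAAGT on either strand stood in 3 of 68 genes that fell (4.41%) and 2 of 51 that rose (3.92%). They stood in 12% of the mitosis genes, 12% of the replication genes, 10.9% of the genes tested and 4.01% of all windows. The letters CCAAT on either strand stood in 84% of the mitosis genes, 56% of the replication genes, 57.4% of the genes that fell, 29.4% of those that rose, 39.1% of the genes tested and 37.7% of all windows. Members of both lists are among the genes that fell, so these sets overlap and their shares are not independent. The windows of *Top2a* (chr10:84473044-84473343, minus strand) and *Pola1*, the catalytic subunit of DNA polymerase alpha (chrX:62342306-62342605, minus strand), are shown because each was the most abundant gene of its list that passed the test and held the motif. The letters of the motifs do not contain each other. Capitals mark the TTTGAA match (on the other strand) in *Top2a* and the TTTGGCGC match (on the other strand) in *Pola1*.
*Top2a*: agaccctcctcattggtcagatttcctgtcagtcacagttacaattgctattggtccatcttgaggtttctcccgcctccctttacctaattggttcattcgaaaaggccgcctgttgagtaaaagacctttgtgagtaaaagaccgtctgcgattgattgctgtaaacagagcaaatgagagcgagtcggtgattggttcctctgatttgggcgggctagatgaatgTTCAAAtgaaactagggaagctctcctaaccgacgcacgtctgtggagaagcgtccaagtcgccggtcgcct
*Pola1*: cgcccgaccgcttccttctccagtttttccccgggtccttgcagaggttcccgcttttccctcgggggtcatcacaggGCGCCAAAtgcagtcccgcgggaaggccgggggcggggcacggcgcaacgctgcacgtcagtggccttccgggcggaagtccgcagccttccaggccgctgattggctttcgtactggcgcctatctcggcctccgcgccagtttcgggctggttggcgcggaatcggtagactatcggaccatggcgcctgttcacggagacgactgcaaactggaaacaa
*Pola1*, chosen after its values were seen, had 514, 438 and 621 normalized counts in control and 393, 298 and 360.3 in *Ets1*-KO libraries and a log2 difference of -0.57 ± 0.12 (SE, n = 3 pairs, limma adjusted p = 0.00847). A match of letters is a description and not a bound site.

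Genes of MHC class II antigen presentation were lower too. All 5 tested were lower on average, with a median log2 difference of -0.717, and 3 passed. *RT1-Ba*, the alpha chain of the rat class II molecule RT1-B, had 80.9, 83.9 and 89.3 normalized counts in control and 48.6, 36 and 40.6 in *Ets1*-KO libraries, with a log2 difference of -1.01 ± 0.19 (SE, n = 3 pairs, limma adjusted p = 0.00494). *Cd74*, the invariant chain that escorts class II molecules, had 595, 534 and 722 normalized counts in control and 391, 397 and 332 in *Ets1*-KO libraries, with a log2 difference of -0.72 ± 0.13 (SE, n = 3 pairs, limma adjusted p = 0.00328). *RT1-Db1*, a beta chain of RT1-D, had 250.5, 217 and 246 normalized counts in control and 168, 128 and 158 in *Ets1*-KO libraries, with a log2 difference of -0.66 ± 0.13 (SE, n = 3 pairs, limma adjusted p = 0.00675). In all 3 the groups did not overlap, and without replicate 1 none of the 5 passed while all 5 were lower. *RT1-Da*, which missed the threshold and was chosen after its values were seen, had 88.6, 74.2 and 36 normalized counts in control and 47.2, 27.3 and 30 in *Ets1*-KO libraries, values that overlapped (-0.85, adjusted p = 0.0512). The summed markers of B and myeloid cells, given above, reached at most 13.1 and 11 normalized counts in any library. The T cell gene *Thy1* was at 0 as well, so a level near 0 does not show that cells are absent. The part of other cells in the class II values was not tested.

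The fall of largest size was that of *Vdr*, the vitamin D receptor (chr7:139342062-139394166, Rnor_6.0), at 24.1, 33.3 and 29.8 normalized counts in control and 6.16, 8.68 and 11.2 in *Ets1*-KO libraries. No library of 1 genotype reached those of the other, and the log2 difference was -1.66 ± 0.34 (adjusted p = 0.00956). *Ctse*, the protease cathepsin E, was at 26.3, 22.6 and 25.1 in control and 7.53, 6.82 and 10.6 in *Ets1*-KO cells (-1.48, adjusted p = 0.029). *Mt1*, a metallothionein that binds zinc, was at 71.1, 40.9 and 56.4 in control against 26, 21.1 and 22.5 in *Ets1*-KO libraries (-1.21, adjusted p = 0.00703). *Slc15a3*, a peptide and histidine transporter of lysosomes, was at 28.4, 28 and 17.2 in control against 11.6, 11.8 and 5 in *Ets1*-KO libraries (-1.33, adjusted p = 0.0451). The genotypes did not overlap in any of these genes, all of them of low level. The means of *Vdr*, *Ctse*, *Slc15a3*, *Bicd1*, *Rab25* and *Tysnd1* were below the minimum of 10 in *Ets1*-KO cells, so that these genes were tested only through the control libraries and the filter favoured a fall. *Bicd1*, a dynein adaptor, *Rab25*, a small GTPase of recycling endosomes, and *Tysnd1*, a peroxisomal protease, fell by 1.56, 1.56 and 1.47 on the log2 scale (adjusted p = 0.0356, 0.0165 and 0.0436).

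Among the genes that rose, immediate early transcription factors were represented by 4 of 16 tested (25%, where 1.02% of all genes tested rose), and 12 of the 16 were higher on average, with a median of 0.175. *Fos* had 278, 232 and 248 normalized counts in control and 472, 438 and 468 in *Ets1*-KO libraries, with a log2 difference of 0.86 ± 0.12 (SE, n = 3 pairs, limma adjusted p = 0.000166). *Egr1* had 42.7, 51.6 and 90.9 normalized counts in control and 93.1, 91.8 and 112 in *Ets1*-KO libraries (0.74, adjusted p = 0.0307), where control replicate 3 came close to the *Ets1*-KO libraries. *Fosb* had 219.9, 203 and 208 normalized counts in control and 312, 306 and 391 in *Ets1*-KO libraries (0.67, adjusted p = 0.0039). *Junb* had 175, 175 and 118 normalized counts in control and 265, 216 and 225 in *Ets1*-KO libraries (0.61, adjusted p = 0.0172). In all 4 the genotypes did not overlap. Without the replicate block *Fos* and *Fosb* passed and the calls of *Egr1* and *Junb* were lost (limma adjusted p = 0.124 and 0.0719). None of 15 NF-kB genes passed, with *Nfkbia*, the feedback inhibitor, at 715, 791 and 517 in control against 942, 812 and 747 in *Ets1*-KO libraries, and *Tnip1* at 238, 268 and 244 in control against 257, 270.4 and 260.4 in *Ets1*-KO libraries.

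**Figure D2:**
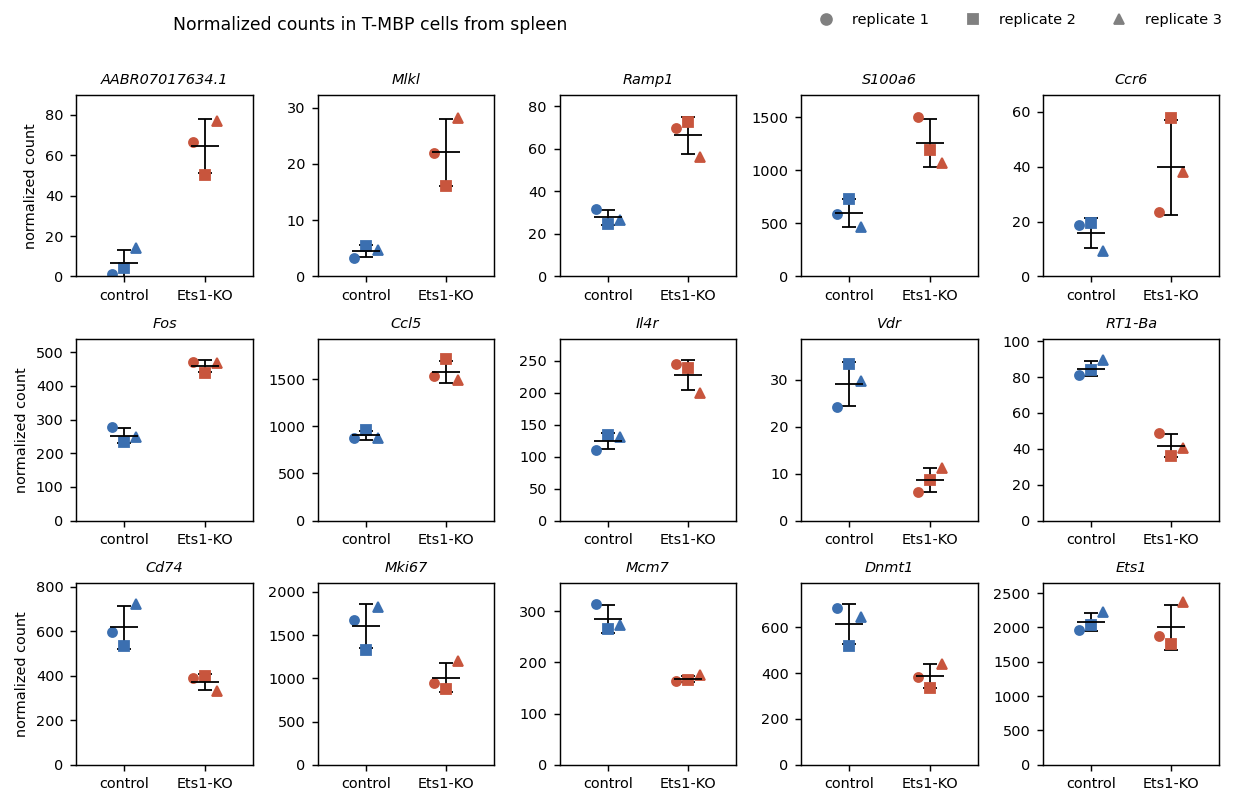
Normalized counts (y axes, from 0) in 3 control and 3 *Ets1*-KO libraries for 15 genes, with the mean and SD in black and the replicate number as the symbol. The genotypes do not overlap in any panel but that of *Ets1*, where 1 *Ets1*-KO library is the highest of the 6.

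Receptors and secreted factors of T cells rose in small numbers. *Ccr6*, the receptor of CCL20 and a marker of Th17 cells, had 18.6, 19.4 and 9.4 normalized counts in control and 23.3, 57.7 and 38.1 in *Ets1*-KO libraries, with a log2 difference of 1.25 ± 0.32 (SE, n = 3 pairs, limma adjusted p = 0.0343), and the lowest edited library was close to the highest control. *Gpr15*, a homing receptor to the gut, had 244, 271 and 418 normalized counts in control and 386, 473 and 443 in *Ets1*-KO libraries (0.51, adjusted p = 0.0339), where the groups overlapped. These were 2 of 11 chemokine and egress receptors tested, and the other 9 did not pass. *Il4r*, the receptor chain for IL-4 and IL-13, was the only 1 of 15 cytokine receptors to pass, at 110.5, 133 and 132 in control and 244, 238 and 200.4 in *Ets1*-KO libraries (0.86, adjusted p = 0.00188). Of 10 cytokines and chemokines tested, *Ccl5*, the chemokine RANTES, and *Fgl2*, a secreted fibrinogen-like protein, rose. *Ccl5* had 882, 963 and 871 normalized counts in control and 1534, 1709 and 1491 in *Ets1*-KO libraries, with a log2 difference of 0.80 ± 0.11 (SE, n = 3 pairs, limma adjusted p = 0.000166). *Fgl2* had 282, 327 and 244 normalized counts in control and 503, 489 and 470.2 in *Ets1*-KO libraries, with a log2 difference of 0.78 ± 0.12 (SE, n = 3 pairs, limma adjusted p = 0.000633). *Maf*, a transcription factor of Th17 and follicular helper cells, rose from 99.5, 118 and 109.7 in control to 154, 140.2 and 196 in *Ets1*-KO libraries (0.57, adjusted p = 0.0422), so that 2 of 7 tested Th17 genes passed, *Ccr6* being the other. Without the replicate block no gene of the Th17 list or of the chemokine and egress receptors passed (limma adjusted p = 0.0962 for *Maf*, 0.0805 for *Ccr6* and 0.14 for *Gpr15*). *Il17a*, the signature cytokine of these cells, had 71.1, 71 and 83 normalized counts in control and 75.3, 110.4 and 88 in *Ets1*-KO libraries, which did not pass (0.27, adjusted p = 0.521).

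The S100 proteins *S100a6* and *S100a4*, small calcium-binding proteins, rose at a high level of expression. *S100a6* had 592, 729 and 470.1 normalized counts in control and 1502, 1193 and 1072 in *Ets1*-KO libraries, each edited library above every control, with a log2 difference of 1.08 ± 0.12 (SE, n = 3 pairs, limma adjusted p = 1.4e-05). *S100a4* had 3362, 3919 and 3270.3 normalized counts in control and 7519, 5643 and 4911 in *Ets1*-KO libraries, with a log2 difference of 0.76 ± 0.14 (SE, n = 3 pairs, limma adjusted p = 0.0036). Of the 16 S100, annexin and vimentin genes tested these 2 passed, and 12 were higher on average, with a median of 0.203. *Tmsb4x*, thymosin beta 4, which binds monomeric actin, had 6523, 6609 and 7202 normalized counts in control and 12298, 9339.5 and 9294 in *Ets1*-KO libraries and was the only 1 of 25 actin regulators to pass (0.59, adjusted p = 0.035), with the first edited library well above the others.

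Ribosomal protein genes, a list added after their values were seen, were higher in 45 of 53 tested, with a median of 0.29, and 7 rose, 3 of which passed without the replicate block. *Rpl24* had 750.4, 841 and 652 normalized counts in control and 1259, 1091 and 1101 in *Ets1*-KO libraries (0.62, adjusted p = 0.00328). Among the others, *Rpl9*, *Rps27a*, *Rpl34*, *Rps24* and *Rps3* rose by 0.85, 0.66, 0.54, 0.50 and 0.48 on the log2 scale. Reads of these short genes can be shared with processed pseudogenes, so single values are uncertain. The values of *Rps27a* and *Rpl9* are those of the entries at chr5:138628481-138629026 and chr1:77829710-77830399 (Rnor_6.0). Another entry of the symbol *Rps27a* was not among the genes tested. Whether the entries tested are the genes or copies of them was not tested. *Rps4y2*, a copy of the ribosomal gene *Rps4x* to which the same caution applies, had 4.38, 2.15 and 0 normalized counts in control and 21.9, 18.6 and 26.2 in *Ets1*-KO libraries (3.17 ± 0.55, adjusted p = 0.00328), and 1 control library held no read of it.

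The gene of largest rise was *AABR07017634.1*, an unnamed gene at chr15:29400817-29446332 (Rnor_6.0) between *Trav6-2* and *Trav12-3*, variable segments of the T cell receptor alpha locus, in the table's own coordinates. It was at 1.09, 4.3 and 14.1 normalized counts, or 1, 4 and 9 reads, in control libraries and at 66.4, 50.2 and 76.8, or 97, 81 and 123 reads, in *Ets1*-KO libraries. The lowest edited library was above the highest control, with a log2 difference of 3.55 ± 0.39 (SE, n = 3 pairs, limma adjusted p = 1.4e-05). *AC109737.1*, at chr4:70828893-70830344 between *Prss1* and *Ephb6*, neighbours of the T cell receptor beta locus, rose from 385, 427 and 531 in control to 679, 607 and 777 in *Ets1*-KO libraries (0.62, adjusted p = 0.00328) and was named after its values were seen. By contrast, *AABR07017902.1*, which spans chr15:32244415-32856430 next to *Dad1* and was also chosen afterwards, was at 2376, 2660 and 3675 in control and 3106, 3482 and 3059 in *Ets1*-KO libraries, which overlapped. *AC142181.1* (chr4:70572941-70821260, also before *Ephb6* and chosen afterwards) was at 66.7, 48.4 and 51.7 in control and 36.3, 34.1 and 60.6 in *Ets1*-KO libraries, which overlapped too. In *Grk2*-KO cells of the spleen, *AC109737.1* had a log2 difference of 0.25 ± 0.080.

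The other large rises were of single genes of varied function. Of the rises named, those of *AABR07017634.1*, *Rps4y2*, *Mlkl* and *Gngt2* reached the minimum mean of 10 only through the *Ets1*-KO libraries, their control means being below it, so that the filter favoured a rise. *Mlkl*, the effector of necroptosis, had 3.28, 5.38 and 4.7 normalized counts in control and 21.9, 16.1 and 28.1 in *Ets1*-KO libraries, with a log2 difference of 2.07 ± 0.43 (SE, n = 3 pairs, limma adjusted p = 0.00926). *RGD1564664*, an uncharacterised gene, was at 44.8, 34.4 and 17.2 in control against 112, 103 and 89.3 in *Ets1*-KO libraries (1.72, adjusted p = 6.37e-05). *Ffar4*, a receptor of long-chain fatty acids, was at 12, 24.7 and 9.4 in control against 50, 39.7 and 41.8 in *Ets1*-KO libraries (1.56, adjusted p = 0.00681). The genotypes did not overlap in any of these 3 genes. *Ramp1*, the accessory protein of the CGRP receptor, was at 31.7, 24.7 and 26.6 in control against 69.8, 72.6 and 56.2 in *Ets1*-KO libraries (1.23, adjusted p = 0.00328). *Pik3ip1*, a negative regulator of PI3K, was at 8.75, 16.1 and 15.7 in control against 25.3, 34.7 and 49.3 in *Ets1*-KO libraries (1.36, adjusted p = 0.0145). *Nefl*, a neurofilament subunit, was at 48.1, 20.4 and 40.74 in control against 68.5, 79.4 and 118 in *Ets1*-KO libraries (1.31, adjusted p = 0.00328). *Gngt2* (a G protein gamma subunit), *Tpra1*, *Timm8a1* (mitochondrial import), *Phyh* (peroxisomal phytanic acid oxidation), *Fbxw4* and *Myof* (myoferlin) rose by 1.51, 1.31, 1.28, 1.16, 1.15 and 1.12 on the log2 scale, with adjusted p from 0.00702 to 0.0497.

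**Figure D3:**
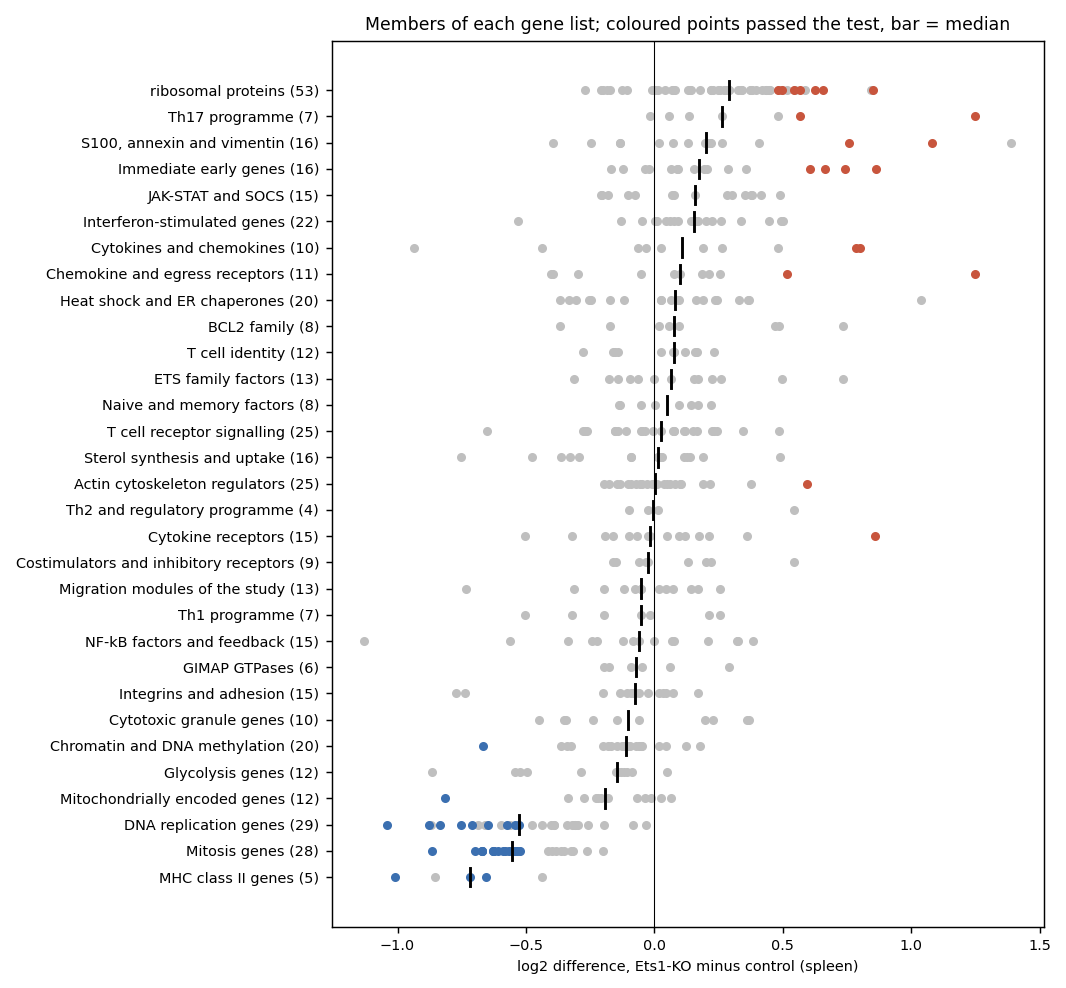
Log2 difference between *Ets1*-KO and control in spleen (x axis) for each member of 31 gene lists with at least 4 genes tested (number in brackets), the median as a black bar, genes that passed the test in colour. MHC class II, mitosis and DNA replication genes lie wholly to the left of 0, and most lists straddle it.

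Many programmes of T cells held no gene that passed. None of 10 cytotoxic granule genes did: *Nkg7* had 835, 888 and 896 normalized counts in control and 810.1, 815 and 889.8 in *Ets1*-KO libraries (-0.059, adjusted p = 0.856), *Srgn* 238, 272 and 219 normalized counts in control and 320.5, 305 and 315 in *Ets1*-KO libraries (0.37, adjusted p = 0.133) and *Prf1*, perforin, 307, 227 and 212 normalized counts in control and 176, 208 and 193 in *Ets1*-KO libraries (-0.35, adjusted p = 0.239). *Prf1* was lower in each edited library than in any control, yet missed the threshold. *Tnfrsf9* had 2 reads in all 6 libraries. None of 7 Th1 genes passed, with *Tbx21*, the regulator of the Th1 fate, at 698, 678 and 791 in control against 787, 668 and 639 in *Ets1*-KO libraries. None of 4 Th2 and regulatory genes did, with *Gata3* at 713, 621 and 625 in control against 624, 673 and 678 in *Ets1*-KO libraries and *Il2ra* at 173, 158 and 172 in control against 166, 148 and 156 in *Ets1*-KO libraries. The same held for 8 naive and memory factors, among which *Id2* was at 1977, 2288 and 1728 in control against 2191, 2360.5 and 2037 in *Ets1*-KO libraries and *Satb1* at 452, 478 and 465 in control against 399.9, 466 and 405 in *Ets1*-KO libraries. Of 15 integrin and adhesion genes none passed, with *Itgb1* at 3059.6, 3016 and 2850.3 in control against 3125, 2867 and 3055 in *Ets1*-KO libraries and *Tln1* at 1819, 1578 and 2064 in control against 1776, 1686 and 1695 in *Ets1*-KO libraries. None of the 13 genes of the migration modules did, with *Gnai2* at 3084, 3015 and 3300.1 in control against 2597, 2795 and 2812 in *Ets1*-KO libraries.

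Signalling and housekeeping lists were alike in this. None of 25 T cell receptor signalling genes (*Ptprc*, -0.046, and *Lcp2*, -0.0052, on the log2 scale), 9 costimulators and inhibitory receptors (*Icos*, 0.20, and *Cd40lg*, -0.033) or 15 JAK-STAT genes (*Stat3*, -0.10) passed. Nor did any of 22 interferon-stimulated genes (*Irf1*, 0.0099, and *Tap1*, 0.15), of which 19 were higher on average, with a median of 0.154. The same was true of 8 BCL2 family genes (*Bak1*, -0.17, and *Bid*, 0.019), 6 GIMAP genes (*Gimap4*, 0.061, and *Gimap7*, -0.20) and 16 sterol genes (*Srebf2*, 0.19). Of 12 glycolysis genes 11 were lower on average, with a median of -0.145 and none past the threshold (*Gpi*, -0.13, and *Pgk1*, 0.05), and none of 20 chaperones passed (*Hsp90ab1*, 0.027, and *Calr*, 0.025). In the marker lists of other cells, the most abundant members were *Klre1* (0.38) and *Txk* (0.30) of the CD8 T and NK cell list. Those of the erythroid and platelet list were *Hba-a1* (-0.14) and *Hba-a2* (0.82). Whether their reads came from other cells or from the T-MBP cells was not tested. Among 12 mitochondrially encoded genes *Mt-atp8* passed, at 1772, 1738 and 1826 in control and 759, 711 and 1903 in *Ets1*-KO libraries (-0.82, adjusted p = 0.00847), but *Ets1*-KO replicate 3, the library with most mitochondrial rRNA, was the highest of the 6. Its call was lost without the replicate block (limma adjusted p = 0.077). It was the 1 gene called that did not change alike in all pairs.

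The effect of *Ets1* editing in the spleen was then set beside that in the spinal cord parenchyma, from a separate table of 3 pairs, where 5.23% of the genes tested passed. Of 6520 genes tested in both tissues, the effect differed for 137 (2.1%; limma on the log2 ratios of pairs, adjusted p under 0.05), in 93 of them with a larger value in the spleen and in 44 with a larger value in the parenchyma. The count was 47 with an interaction term and no pairing, 2 without the trend, 27 without replicate 1 and 73 without replicate 2. Among the 140 genes called in the spleen that were tested in both, 39 differed (27.9%), which includes 30 of the 69 that rose and 9 of the 71 that fell in the spleen. Those that rose in the spleen had a median log2 difference of 0.0555 in the parenchyma, and those that fell a median of -0.309. The spleen values chose these genes, so the share is a description.

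Most division genes were lower on average in both tissues. Of 20 mitosis genes tested in both, 20 were lower in *Ets1*-KO cells from the spleen and 19 in those from the parenchyma, with medians of -0.557 and -1.15. The effect differed for 5, each with the larger fall in the parenchyma. Among them, *Kif15* was at 7.08, 17.2 and 4.53 and *Kif20b* at 9.1, 15.2 and 4.53 in *Ets1*-KO libraries of the parenchyma. The means of *Kif15* and *Kif20b* in these libraries were below the count minimum. They were thus tested in the parenchyma only through its control libraries, and the filter favoured a larger fall there. *Cenpe*, a centromere motor chosen after its values were seen, fell by 0.52 in the spleen and was at 54.2, 61.1 and 51.1 in control and 12.1, 25.3 and 15.9 in *Ets1*-KO libraries of the parenchyma (log2 difference -1.65), a difference between tissues of 1.12 ± 0.20 (adjusted p = 0.00108). *Mki67* was at 210.2, 206 and 166 in control against 94, 104 and 65.7 in *Ets1*-KO libraries in the parenchyma, a log2 difference of -1.15 ± 0.13 against -0.67 ± 0.11 in the spleen, and the difference of the effects did not pass (adjusted p = 0.0756). Of 17 replication genes tested in both, none differed. All 17 were lower in the spleen, and 12 were lower and 5 higher in the parenchyma, with medians of -0.439 and -0.178. *Ccr6* had a log2 difference of 1.40 ± 0.11 in the parenchyma, close to that in the spleen (-0.15 ± 0.28, adjusted p = 0.882 for the difference between tissues).

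Cytotoxic genes set the tissues apart. *Nkg7* was at 616, 569.9 and 469.8 in control and 1185, 1393 and 1246 in *Ets1*-KO libraries of the parenchyma, a log2 difference of 1.21 ± 0.079, against -0.059 ± 0.11 in the spleen (difference -1.27 ± 0.14, adjusted p = 1.85e-07). *Prf1* was at 1505, 1349 and 1274 in control against 2703, 2831 and 2847 in *Ets1*-KO libraries in the parenchyma, and its effect differed by -1.38 ± 0.15 (adjusted p = 2.49e-07). Of 10 cytotoxic granule genes, 4 differed, each with the larger value in the parenchyma. *Vdr* moved in opposite directions: it fell in the spleen and was at 96.2, 79 and 86.5 in control and 148, 133 and 135 in *Ets1*-KO libraries of the parenchyma, all 3 edited libraries above all controls, a difference of -2.32 ± 0.31 (adjusted p = 7.72e-06). *AABR07017634.1* was at 26.1, 27.3 and 15.7 in control against 30.3, 24.3 and 41.9 in *Ets1*-KO libraries in the parenchyma, where the groups overlapped, and its effect was larger in the spleen by 3.08 ± 0.50 (adjusted p = 0.000184). *Mlkl* was at 33.6, 24.4 and 17.7 in control against 26.3, 13.1 and 23.8 in *Ets1*-KO libraries there, without a separation of the genotypes (difference 2.33 ± 0.49, adjusted p = 0.0055). *Vdr*, *AABR07017634.1* and *Mlkl* were named for the size of their change in the spleen, which favoured a difference in that direction. The ribosomal genes were higher in 44 of 52 in the spleen and lower in 45 of 52 in the parenchyma, with medians of 0.286 and -0.164, and the effect differed for 8. Of 5 MHC class II genes, 5 were lower in the spleen and 4 in the parenchyma. Their medians were -0.717 and -0.22, and no difference between the tissues passed.

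The last comparison set *Ets1*-KO beside *Grk2*-KO in the spleen, in cells edited at another gene and also sorted by fluorophore. Of 6490 genes tested in both, the effects of the 2 edits differed for 126 (1.94%), 47 with a larger value for *Ets1*-KO and 79 with a larger value for *Grk2*-KO. The count was 43 with an interaction term and no pairing, 0 without the trend (749 at an unadjusted p under 0.05 by limma), and 30, 24 and 49 without replicates 1, 2 and 3. Among the 147 genes called for *Ets1*-KO that were tested in both, 74 differed (50.3%), in each case with the *Ets1*-KO effect farther out in its own direction. The *Ets1*-KO values chose these genes, so this share and its direction are a description. Mitosis genes went opposite ways: of 28, all 28 were lower in *Ets1*-KO cells (median -0.556) and 27 were higher in *Grk2*-KO cells (median 0.32), and the effects differed for 19. *Top2a* was at 1260, 1067 and 955 in control and 1428, 1529 and 1239 in *Grk2*-KO libraries, which differed from the *Ets1*-KO effect by -0.99 ± 0.13 (adjusted p = 1.02e-05). Of 29 replication genes, 5 differed, with a median of 0.133 for *Grk2*-KO. *Ccl5* was at 356, 571 and 628 in control against 342, 301 and 362 in *Grk2*-KO libraries, lower in 3 of 3 edited libraries than in their own pair and higher in 3 of 3 for *Ets1* (difference 1.39 ± 0.16, adjusted p = 9.16e-07).

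A few genes had like values under both edits. The 5 MHC class II genes were lower on average in *Grk2*-KO cells too, with a median of -0.974 against -0.717 for *Ets1*-KO. No difference between the edits passed the test, which does not show that the effects were equal. The fall was smaller in *Grk2*-KO cells for *RT1-Ba* (-0.37 ± 0.22 against -1.01 ± 0.19). It was larger there for *RT1-Db1* (-0.97 ± 0.18 against -0.66 ± 0.13). *Cd74* was at 252, 216 and 226 in control and 168, 111 and 103 in *Grk2*-KO libraries, a log2 difference of -0.89 ± 0.11 (adjusted p = 0.744 for the difference between edits). *Fgl2* had a log2 difference of 0.81 ± 0.075 in *Grk2*-KO and 0.78 ± 0.12 in *Ets1*-KO cells, which differed by -0.023 ± 0.14 (adjusted p = 0.977). *Gpr15* had 0.60 ± 0.10 and 0.51 ± 0.13 (difference -0.09 ± 0.17, adjusted p = 0.891). *S100a4* was higher in *Grk2*-KO cells too, by 0.41 ± 0.066 (difference 0.34 ± 0.15, adjusted p = 0.312). *S100a6* rose under both edits, by 0.56 ± 0.069 in *Grk2*-KO cells, with the larger rise in *Ets1*-KO cells (difference 0.52 ± 0.14, adjusted p = 0.0423). Both sorts separated edited from control cells by fluorophore, and the part of the fluorophore in these values was not tested.

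**Figure D4:**
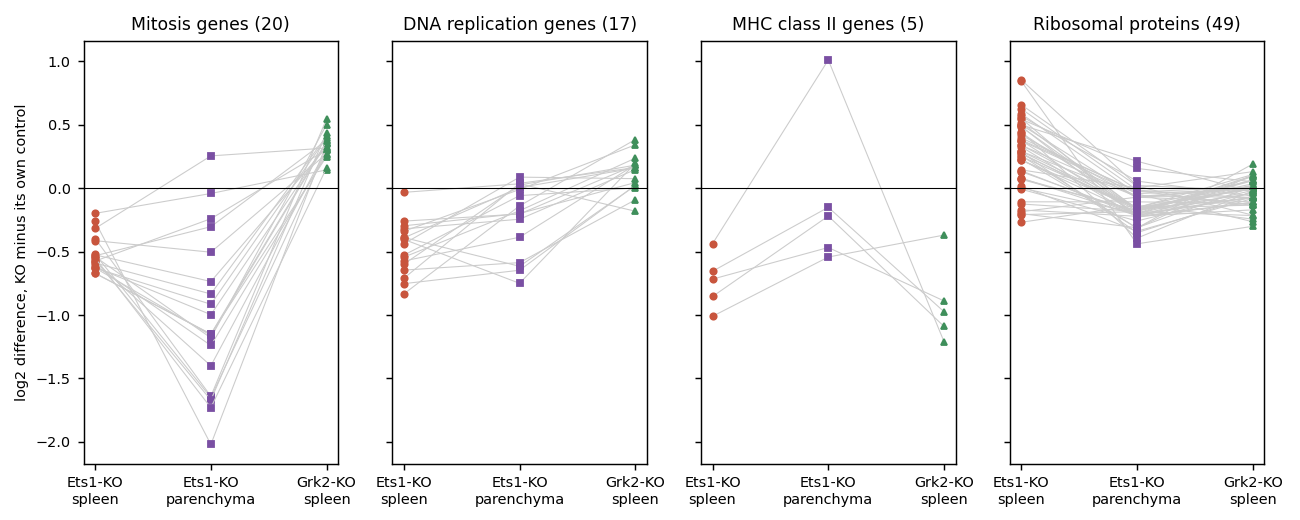
Log2 difference of KO minus its own control (y axis) for *Ets1*-KO in spleen, *Ets1*-KO in parenchyma and *Grk2*-KO in spleen, with 1 line per gene tested in all 3. The 20 mitosis genes are below 0 in *Ets1*-KO spleen and above 0 in *Grk2*-KO spleen, and the 5 MHC class II genes are below 0 in both spleen comparisons.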

How the data were processed

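RNA of T-MBP cells sorted from spleen was sequenced as 3′ mRNA (Collibri kit, single-end). According to the methods and the submitters' processing notes, the authors aligned reads to Rnor_6.0 with STAR 2.7.2b, counted them per gene with HTSeq 1.0.0 and divided counts by DESeq2 (2.11.40.7) size factors (poscounts). The signal values that the authors deposited are these normalized counts, 1 table per tissue and edit. Tables of fold changes, p-values and pathways by the authors were not used, nor were 8 columns of human libraries.

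Genes with a mean of at least 10 were tested with limma 3.58.1 (R 4.3.3) on log2(normalized count + 1), with eBayes and a trend, replicate number as a block and Benjamini-Hochberg adjustment at 0.05, two-sided. Fold changes on this scale understate those of low genes. The block follows the batch correction per animal that the authors used where applicable, but the labels do not say that a number marks 1 animal, so p-values measure the spread between libraries, which may be technical. Differences between comparisons were tested with limma on the log2 ratios of pairs. Of the values in each spleen *Ets1* library, 100% were whole multiples of 1 read (tolerance 0.01). edgeR 4.0.16 and DESeq2 1.42.0 were run on these reads as alternatives, and the fits were tested on simulated data. Replicate counts differed by more than sampling noise, with a chi-square per degree of freedom from 2.53 to 10.

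Named genes were *Ets1*, the 15 largest rises and falls among genes called and alike in all pairs, up to 6 called members of each list or else its 2 most abundant, and *Nkg7*, *Prf1*, *Il17a*, *Tnfrsf9* and *Ccr6*. A few genes that this rule would name are not reported here. The members and lists were chosen with earlier results of these data known.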

Additional observations from a re-analysis of the deposited data

Results flagged for a closer look

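Spleen and parenchyma were set against each other for the effect of the *Ets1* edit, by a test of the difference itself (limma on the log2 ratios of pairs), and it differed for 137 genes. Among the genes named, the effect in the spleen minus that in the parenchyma, on the log2 scale, was 3.08 for *AABR07017634.1*, 2.33 for *Mlkl*, 2.12 for *Ffar4*, 1.53 for *Pik3ip1*, 1.48 for *Myof*, 0.945 for *RGD1564664* and 0.563 for *AC109737.1*. In all of these the value in the spleen was the larger. These genes were named for their rises in the spleen, *AC109737.1* after its values were seen, so this direction was largely fixed in advance. *AABR07017634.1* and *Mlkl* also reached the count minimum in the spleen only through the *Ets1*-KO libraries. In the same order, the log2 differences in the parenchyma were 0.468, -0.261, -0.56, -0.169, -0.36, 0.775 and 0.0606. *RGD1564664* thus rose there too (0.775 ± 0.121).

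The immediate early gene *Fosb* differed by 0.814, *Fgl2* by 0.536, *S100a4* by 0.646 and *S100a6* by 0.517. Their log2 differences in the parenchyma were -0.148, 0.248, 0.112 and 0.562. These genes and the ribosomal genes that follow were named because they passed in the spleen, which favoured a larger value there. Of 15 immediate early genes tested in both tissues 2 differed, with medians of 0.194 in the spleen and 0.22 in the parenchyma. *Fos* (0.345 ± 0.128), *Egr1* (0.398 ± 0.0815), *Junb* (0.265 ± 0.111), *Ccl5* (0.382 ± 0.0683) and *Il4r* (0.402 ± 0.089) were higher in the parenchyma too. For none of them did the difference between tissues pass. The ribosomal genes *Rpl9*, *Rps3*, *Rpl24* and *Rps27a* differed by 0.833, 0.644, 0.641 and 0.641. For the mitosis genes *Kif15* (1.18), *Cenpe* (1.12) and *Kif20b* (1.11), a motor protein each, the positive difference means a smaller fall in the spleen. *Kif15* and *Kif20b* were chosen after their values were seen and fell in the spleen by 0.55 and 0.56 on the log2 scale. Their means in *Ets1*-KO cells of the parenchyma were below the count minimum, so the filter favoured a larger fall there.

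The difference had the opposite sign for *Vdr* (-2.32), *Bicd1* (-1.57), *Prf1* (-1.38), *Nkg7* (-1.27) and *Il2ra* (-0.719), of which *Vdr* and *Bicd1* fell in the spleen and the others did not pass there. *Vdr* and *Bicd1* were named as large falls in the spleen. They reached the count minimum there only through the control libraries, so a negative difference was favoured.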

How the results depend on the processing

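The libraries hold 898092 to 2248258 reads on genes, so genes near the mean of 10 rest on few reads, and *Ets1*-KO libraries were the deeper ones. The labels do not say that same-numbered libraries share an animal. The deviations of same-numbered libraries from their group means correlated with r = 0.089, 0.077 and 0.18, and every library correlated best with its own number, a hint from the data only.

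The count of 155 genes became 71 without the replicate block, 242 without the filter on low values, 238 with edgeR, 55 with DESeq2 and a block, 83 with DESeq2 without a block and 0 without the trend, where 785 genes had an unadjusted p under 0.05. It ranged from 3 to 232 when 1 replicate number was left out. The 3 genes left without replicate 1 were *Nefl*, *AABR07017634.1* and *RGD1564664*, and 489 had an unadjusted p under 0.05. Added after seeing the data, both without the block, the count was 126 without control replicate 3 and 21 without KO replicate 3. It was 149 and 165 with pseudocounts of 0.1 and 5, 143 with a minimum mean of 50, 180 with quantile normalization, 199 with TMM, 192 with upper quartile scaling and 189 at equal depth. The 137 genes that differed from the parenchyma became 2 without the trend, 47 with an interaction term and no pairing, and 27 to 98 with a replicate number left out. The 126 that differed from *Grk2*-KO became 0 without the trend (749 with an unadjusted p under 0.05), 43 with an interaction term and no pairing, and 24 to 49 with a replicate number left out. The cause of these shifts was not tested. The ratio of library totals ranged from 1.66 to 2.08 and the log2 difference of the Ets1 level from -0.141 to 0.00856 with a replicate number left out.

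Of 72 genes named that passed, none changed direction in any alternative run that gave them an adjusted p. Of the 72, 27 missed the threshold without the block, 72 without the trend, 69 without replicate 1, 11 without replicate 2 and 15 without replicate 3. At equal depth 7 of 70 did, and with DESeq2 without a block 25 of 72 did. DESeq2 with a block gave an adjusted p for only 33 of them, of which 8 missed the threshold.
Genes that had not passed changed the sign of a small log2 difference. With a replicate number left out, it ranged from -0.342 to 0.0361 for *Bak1*, -0.191 to 0.293 for *Bid*, -0.0799 to 0.156 for *Calr*, -0.0807 to 0.0115 for *Cd40lg*, -0.0386 to 0.116 for *Gata3*, -0.000412 to 0.134 for *Gimap4*, -0.344 to 0.0108 for *Hba-a1*, -0.181 to 0.255 for *Hsp90ab1*, -0.000717 to 0.0272 for *Irf1*, -0.0214 to 0.0654 for *Itgb1*, -0.0554 to 0.0442 for *Lcp2*, -0.00804 to 0.138 for *Pgk1*, -0.0925 to 0.0452 for *Ptprc*, -0.164 to 0.076 for *Tbx21* and -0.159 to 0.0301 for *Tln1*. Without KO replicate 3 and without the block, *Bak1* became 0.0325, *Cd40lg* 0.0356, *Gata3* -0.0084, *Gimap4* -0.0981 and *Tbx21* 0.00855. At equal depth, *Bid* became -0.0522 and *Irf1* -0.00179. With edgeR, *Bid* became -0.0218 and *Lcp2* 0.00143. With DESeq2 without a block, *Bid* became -0.0388 and *Lcp2* 0.00199. Without control replicate 3 and without the block, *Bid* became -0.297, *Gata3* -0.0168, *Irf1* -0.0482, *Itgb1* -0.0115, *Lcp2* 0.0583, *Ptprc* 0.0496, *Tbx21* 0.0157 and *Tln1* 0.0204. With quantile normalization, *Gata3* became -0.0203, *Hsp90ab1* -0.0641, *Irf1* -0.015 and *Ptprc* 0.0139. With TMM scaling, *Lcp2* became 0.0216. With upper quartile scaling, *Lcp2* became 0.0226. With DESeq2 and a block, *Lcp2* became 0.00216.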
